A study of Arabidopsis thaliana with 18 samples.

Results

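Loss of the Mediator subunits MED5a and MED5b was compared with functional MED5 across 3 genetic backgrounds of Arabidopsis thaliana, ecotype Columbia-0. In all, 9 libraries carried the insertion alleles med5a-1 and med5b-1, written med5 below, and 9 carried functional MED5. The 9 med5 libraries were med5 in the wild-type background, ref5-1 med5 and ref2-1 med5, with 3 libraries each. The 9 libraries with functional MED5 were wild type, ref5-1 and ref2-1, again with 3 libraries each. These were all 18 libraries of the series, and all 19897 genes that passed the filter on low counts were tested. The ref5-1 allele is a missense change in CYP83B1, a cytochrome P450 of indole glucosinolate synthesis, and ref2-1 lacks function of CYP83A1, its counterpart in aliphatic glucosinolate synthesis. Each library was made from whole rosettes of 18-day-old plants grown in long days, with 5 rosettes from separate pots pooled per library. The alleles were carried by the whole plant throughout development, and each mutant genotype was represented by a single allele of each gene. In rosettes, fewer cells of a type and less RNA per cell cannot be told apart. The model fitted background as a block and MED5 status as the factor. Each effect called averaged below is thus 1 common effect fitted over the 3 backgrounds. It need not equal the plain mean of the 3 single effects, above all where these differ.

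Mediator is a multi-subunit complex that connects DNA-bound transcription factors with RNA polymerase II, and MED5 belongs to its tail, the module that many activators contact. Phenylpropanoid metabolism starts with deamination of phenylalanine and leads through hydroxycinnamic acids to lignin, sinapate esters and, through a branch at chalcone synthase, flavonoids and anthocyanins. Plants with the ref5-1 or ref2-1 block accumulate less sinapoylmalate and related phenylpropanoids, and loss of MED5 is known to restore them. The comparison asks which transcripts depend on MED5 irrespective of the glucosinolate background.

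The summed gene counts of a library lay between 19578169 and 33193849, with 22002 to 22606 genes detected. Reads that aligned to several places made up 3.71% to 25.3% of a library. The highest share belonged to ref5-1 med5 replicate 1, and the next highest was 8.91%. Without that library, the averaged comparison given below called 2269 genes in place of 2489. Levels are given as CPM, counts scaled to library size with TMM factors, and are compared within a gene only. The value after ± is the standard error (SE) of a log2 fold change or the SD of a group mean. Called means an adjusted p under 0.05 in edgeR's quasi-likelihood test with Benjamini-Hochberg adjustment over all tested genes.

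The stretches of 250 bases upstream of 6 genes on which the results turn are shown first, because their listed motifs are taken up again beside the genes. Sequences are from RefSeq's TAIR10.1 assembly and run 5′ to 3′ on the gene's strand, ending at the base before the annotated gene start. Capitals mark the G-box CACGTG in PAL4, DFR and UGT79B1, the AC element ACCAACC in HCT and ACCTACC in CCoAOMT1, and the evening element, on the opposite strand, in DJC66. PAL4 (chr3:3203738-3203987, plus strand) and CCoAOMT1 (chr4:16310159-16310408, plus strand) rose in med5 rosettes, as did HCT (chr5:19838236-19838485, minus strand). DFR (chr5:17166033-17166282, minus strand), UGT79B1 (chr5:21938397-21938646, minus strand) and DJC66 (chr3:4311630-4311879, minus strand) fell. None of the 6 stretches overlaps an annotated neighbouring gene.
PAL4: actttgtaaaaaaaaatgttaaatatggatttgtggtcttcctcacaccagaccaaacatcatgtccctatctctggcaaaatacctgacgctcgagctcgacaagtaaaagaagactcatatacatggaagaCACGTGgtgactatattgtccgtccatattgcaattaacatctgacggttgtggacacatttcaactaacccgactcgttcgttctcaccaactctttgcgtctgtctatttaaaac
HCT: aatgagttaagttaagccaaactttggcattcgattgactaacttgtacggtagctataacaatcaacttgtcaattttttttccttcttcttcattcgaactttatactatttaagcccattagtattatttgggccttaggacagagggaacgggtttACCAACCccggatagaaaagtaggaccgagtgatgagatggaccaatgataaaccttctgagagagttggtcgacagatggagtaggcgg
CCoAOMT1: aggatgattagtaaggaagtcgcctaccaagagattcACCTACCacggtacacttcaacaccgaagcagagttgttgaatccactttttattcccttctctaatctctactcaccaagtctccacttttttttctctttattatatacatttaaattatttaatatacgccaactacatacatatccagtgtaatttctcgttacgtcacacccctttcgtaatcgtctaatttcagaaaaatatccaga
DFR: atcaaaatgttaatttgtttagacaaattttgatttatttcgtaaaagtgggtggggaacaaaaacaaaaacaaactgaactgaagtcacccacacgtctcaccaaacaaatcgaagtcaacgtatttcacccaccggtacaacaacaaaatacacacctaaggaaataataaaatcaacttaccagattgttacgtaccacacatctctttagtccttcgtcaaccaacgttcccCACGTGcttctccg
UGT79B1: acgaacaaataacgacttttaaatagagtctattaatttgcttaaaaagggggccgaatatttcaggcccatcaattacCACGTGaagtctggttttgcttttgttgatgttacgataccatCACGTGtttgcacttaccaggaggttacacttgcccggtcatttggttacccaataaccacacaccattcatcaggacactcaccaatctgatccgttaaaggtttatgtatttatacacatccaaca
DJC66: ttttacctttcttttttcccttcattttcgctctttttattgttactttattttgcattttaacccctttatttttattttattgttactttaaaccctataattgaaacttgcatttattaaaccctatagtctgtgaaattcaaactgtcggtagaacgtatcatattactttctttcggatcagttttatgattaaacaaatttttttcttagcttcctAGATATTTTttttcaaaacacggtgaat

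The insertion alleles were visible in the transcripts of their own genes. MED5B (AT2G48110) had 6.31, 7.6 and 8.47 CPM (lowest, median and highest) in med5 libraries, against 23.5, 26.3 and 30.7 CPM with functional MED5. The groups did not overlap, and the log2 fold change was -1.85 ± 0.05 (adjusted p = 6.79e-15). MED5A (AT3G23590) had 23.4, 32.1 and 40.8 CPM in med5 libraries and 34.8, 46.9 and 52.2 CPM with functional MED5, a smaller difference of -0.52 ± 0.06 (adjusted p = 1.3e-05) with overlap between the groups. Reads from both genes remained in every med5 library. The genes altered by the background alleles did not pass the test for MED5 status. CYP83A1 had a log2 fold change of 0.14 ± 0.06 (adjusted p = 0.164) and CYP83B1 one of -0.34 ± 0.12 (adjusted p = 0.0781). CYP83B1 was called lower in 6 of the 28 alternative settings tried, among them DESeq2 and the fit without the wild-type pair of genotypes. CYP83A1 was lower in both ref2-1 genotypes, with 138 CPM in ref2-1 med5 and 123 CPM in ref2-1, against 402 to 469 CPM as means of the other 4 genotypes. None of the other 16 Mediator subunits examined was called.

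Averaged over the backgrounds, 2489 genes changed with loss of MED5, or 12.5% of those tested. Of these, 1177 were higher (5.92%) and 1312 were lower (6.59%) in med5 rosettes. Most changes were small: the median absolute log2 fold change of called genes was 0.33, and 253 genes (1.27%) reached 1. Among those larger changes, 90 genes were higher (0.452%) and 163 were lower (0.819%). For 497 genes (2.5%) the 3 libraries with and the 3 without med5 did not overlap in any background and lay in the direction of the averaged effect; 494 of them were called, 239 higher and 255 lower. All 9 med5 libraries lay apart from all 9 libraries with functional MED5 for 99 genes (0.498%).

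Genes for the core phenylpropanoid enzymes rose together in med5 rosettes. Of 23 measured enzyme genes, 15 rose and 2 fell, beside 5.92% and 6.59% of all tested genes. The median log2 fold change of the 23 genes was 0.35, against 0.01 over all tested genes, and was 0.29 in the wild-type, 0.33 in the ref5-1 and 0.50 in the ref2-1 background. Summed over the list, the 9 med5 libraries had 3023 to 3732 CPM and the 9 with functional MED5 had 2266 to 2982 CPM. The enzyme list was chosen with earlier results of these libraries known and is no independent evidence of its direction.

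PAL4, 1 of the 4 phenylalanine ammonia-lyase genes that open the pathway, had the largest rise. It had 27.1, 35.6 and 53.3 CPM (lowest, median and highest) in med5 libraries, against 2.36, 8.47 and 12.7 CPM with functional MED5. The groups lay far apart, and PAL4 was 4.95-fold higher in med5 (log2 fold change 2.31 ± 0.21, adjusted p = 6.56e-06). By genotype, the means were 37.0 ± 14.1 CPM in med5, 40.3 ± 3.44 in ref5-1 med5 and 31.4 ± 4.22 in ref2-1 med5, against 10.8 ± 2.13 in wild type, 9.17 ± 1.78 in ref5-1 and 3.5 ± 1.23 in ref2-1 (SD, n = 3 each). The med5 means were thus within 1.28-fold of each other, while those with functional MED5 spanned 3.08-fold. The other ammonia-lyase genes rose less: PAL1 by a log2 fold change of 0.60 ± 0.07, PAL2 by 0.36 ± 0.05 and PAL3 by 0.35 ± 0.08. The PAL4 upstream stretch above holds a G-box from 117 to 112 bases before the gene start, which overlaps an ABRE (GACACGT on the gene's strand).

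4-Coumarate:CoA ligase, which activates hydroxycinnamic acids, was led by 2 genes. 4CL1 had 244, 273 and 338 CPM in med5 libraries and 85.0, 150 and 165 CPM with functional MED5, with no overlap (log2 fold change 1.11 ± 0.08, adjusted p = 3.3e-08). 4CL2 had 17.9, 21.1 and 27.9 CPM in med5 libraries and 5.62, 9.57 and 11.6 CPM with functional MED5, again with no overlap (log2 fold change 1.40 ± 0.10, adjusted p = 6.07e-08). The 4CL2 effect was 0.99 ± 0.11 in the wild-type, 1.43 ± 0.11 in the ref5-1 and 1.81 ± 0.11 in the ref2-1 background, and these differed (interaction adjusted p = 0.0291). 4CL3, the isoform linked with flavonoid synthesis, had a log2 fold change of -0.15 ± 0.10 (adjusted p = 0.355).

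The enzymes between cinnamate and the monolignols rose by smaller and similar amounts. C4H, cinnamate 4-hydroxylase, had a log2 fold change of 0.49 ± 0.05, and HCT, the shikimate hydroxycinnamoyltransferase, one of 0.51 ± 0.05. The 3′-hydroxylase gene CYP98A3 had 0.47 ± 0.06 and the caffeoyl shikimate esterase gene CSE 0.51 ± 0.05. CCoAOMT1, which methylates caffeoyl-CoA, had 382, 418 and 503 CPM in med5 libraries and 217, 284 and 314 CPM with functional MED5 (log2 fold change 0.65 ± 0.05, adjusted p = 8.62e-08). All 9 med5 libraries exceeded all others for CCoAOMT1, CYP98A3 and CSE. The late genes OMT1 (0.18 ± 0.04), CAD4 (0.31 ± 0.07) and CAD5 (0.34 ± 0.11) also rose, CAD5 at an adjusted p of 0.0465. UGT72E1, a glucosyltransferase of monolignol aldehydes, rose with 10.9, 15.4 and 18.4 CPM in med5 libraries, against 5.99, 6.86 and 10.7 CPM with functional MED5 (0.90 ± 0.13, adjusted p = 0.000163). AC elements, the sites of MYB factors in lignin genes, occurred in 7 of the 23 upstream stretches, among them HCT at 90 to 84 and CCoAOMT1 at 213 to 207 bases before the start.

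FAH1, ALDH2C4, UGT84A1 and SNG1, of the sinapate branch, were not called. FAH1, the ferulate 5-hydroxylase, had 177, 235 and 257 CPM in med5 libraries and 167, 207 and 225 CPM with functional MED5 (log2 fold change 0.16 ± 0.06, adjusted p = 0.103). SNG1, which makes sinapoylmalate from sinapoylglucose, had a log2 fold change of 0.00 ± 0.06 (adjusted p = 0.976), and ALDH2C4 one of 0.03 ± 0.08. CCR1, of the monolignol branch, was also not called (0.13 ± 0.04, adjusted p = 0.0513). UGT84A2, the sinapate glucosyltransferase, fell, with 39.1, 52.5 and 56.5 CPM in med5 libraries and 47.0, 75.5 and 109 CPM with functional MED5 (-0.56 ± 0.12, adjusted p = 0.00732). Its effect was -0.11 ± 0.13 in the wild-type and -1.07 ± 0.13 in the ref2-1 background (interaction adjusted p = 0.0331). UGT72E2, the other called enzyme gene that fell, was at 0 to 0.314 CPM in med5 libraries and 0 to 1.81 CPM with functional MED5, too near the limit of counting for a useful fold. Of 11 markers of xylem, the lignified water-conducting tissue, 2 rose and none fell, beside 5.92% and 6.59% of all tested genes. These were CESA8 (0.39 ± 0.12, adjusted p = 0.0445) and MYB63. The CESA8 call was lost in 18 of the 28 alternative settings tried. Summed over the 11 markers, med5 libraries had 131 to 209 CPM and libraries with functional MED5 had 83.0 to 211 CPM, with no marker at 0 in any library, and their part in the enzyme levels was not tested.

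**Figure D1:**
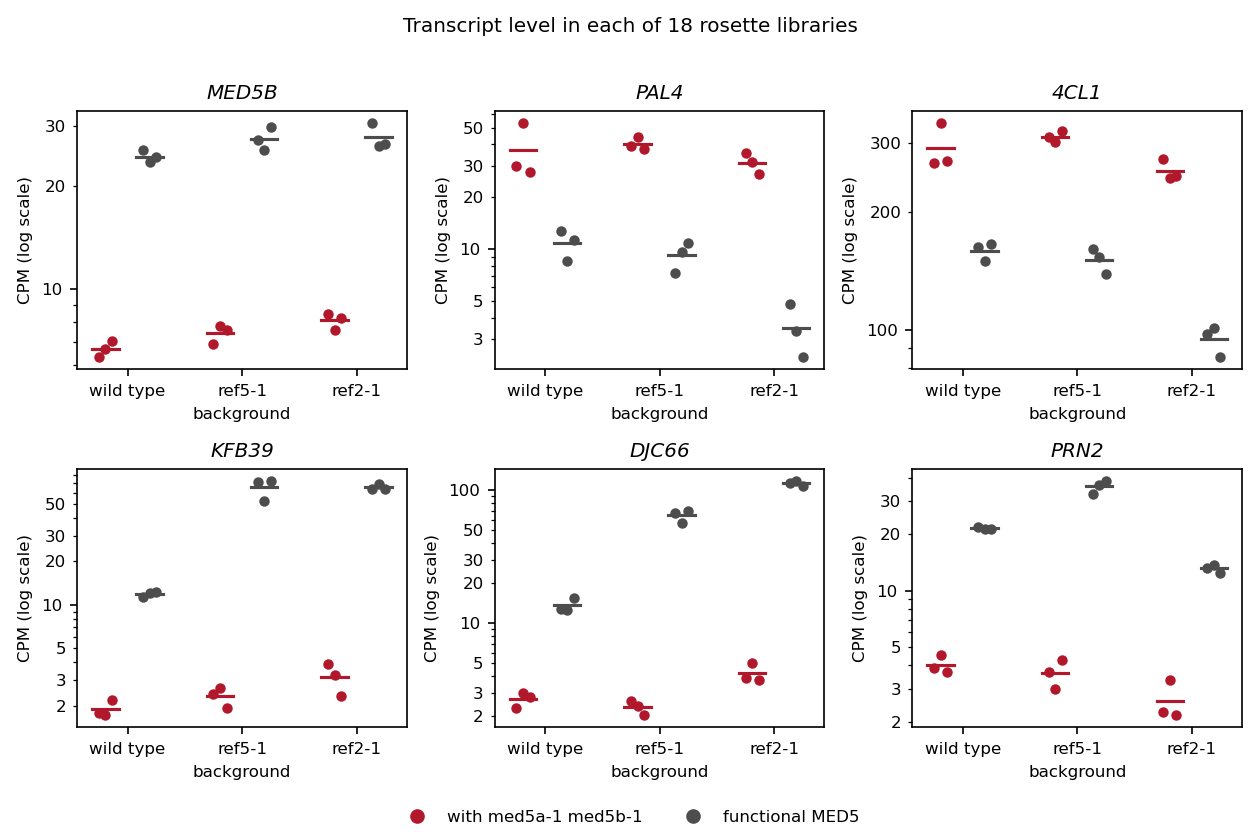
Expression of MED5B, PAL4, 4CL1, KFB39, DJC66 and PRN2 in each of the 18 libraries, in CPM on a log scale, by background, with med5 libraries left of those with functional MED5; points are libraries and lines are genotype means. PAL4 and 4CL1 lie higher and the other 4 genes lower in every med5 library than in any library with functional MED5.

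**Figure D2:**
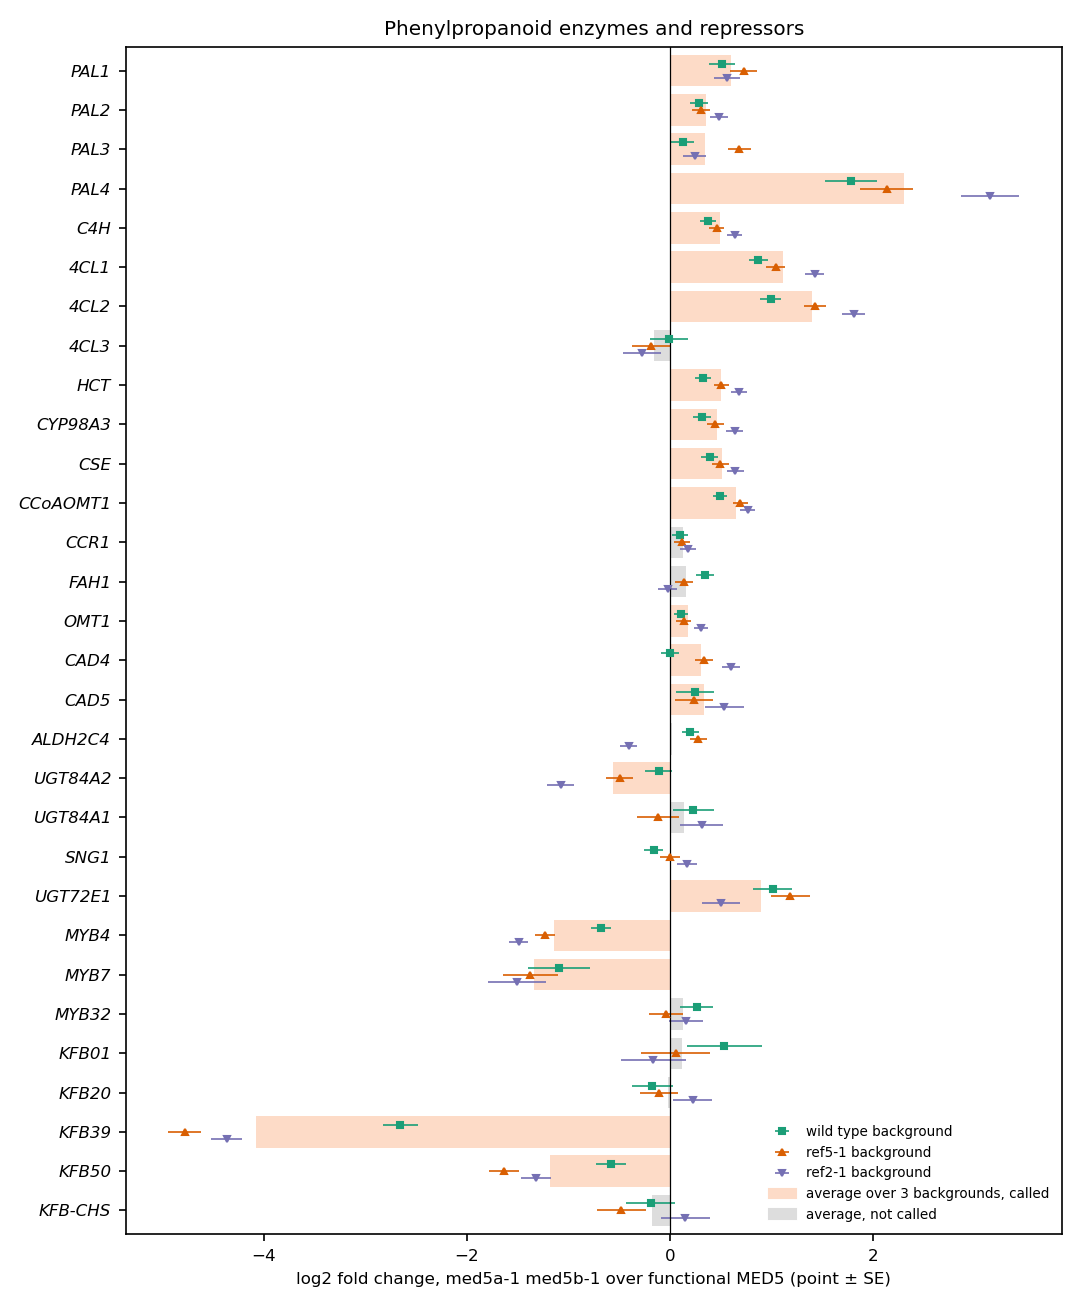
Log2 fold change of med5 over functional MED5 for the phenylpropanoid enzyme genes other than UGT72E2 and for 8 repressor genes. Points show the wild-type, ref5-1 and ref2-1 backgrounds with their SE and bars show the additive average (grey where not called); the enzymes lie mostly above 0 and KFB39, KFB50, MYB4 and MYB7 lie below 0 in each background.

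Known repressors of the pathway fell in med5 rosettes. Of 8 measured genes, KFB39, KFB50, MYB4 and MYB7 fell, and none rose, beside 6.59% and 5.92% of all tested genes. KFB39 (AT2G44130) encodes a Kelch-domain F-box protein that targets phenylalanine ammonia-lyase for degradation. It had 1.72, 2.34 and 3.9 CPM in med5 libraries, against 11.4, 63.6 and 72.4 CPM with functional MED5, a 16.8-fold lower level (log2 fold change -4.07 ± 0.24, adjusted p = 8.62e-08). The genotype means were 1.91 ± 0.264 CPM in med5, 2.34 ± 0.38 in ref5-1 med5 and 3.17 ± 0.787 in ref2-1 med5, against 11.9 ± 0.514 in wild type, 65.1 ± 11 in ref5-1 and 65.4 ± 3.02 in ref2-1 (SD, n = 3 each). Both background alleles without med5 therefore stood well above wild type, and the 3 med5 genotypes lay within 1.67-fold of each other. The effect differed between backgrounds, with -2.65 ± 0.17 in wild type, -4.78 ± 0.16 in ref5-1 and -4.36 ± 0.15 in ref2-1 (interaction adjusted p = 0.000485). The KFB39 locus overlaps an annotated gene on the opposite strand, and the strand setting of the counting is not given in the sources used here.

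KFB50, a second F-box gene of this family, had 31.0, 41.9 and 54.5 CPM in med5 libraries and 54.2, 110 and 145 CPM with functional MED5 (log2 fold change -1.18 ± 0.14, adjusted p = 5.48e-05). MYB4, a repressor of C4H and related genes, had 13.4, 14.9 and 16.1 CPM in med5 libraries and 20.5, 32.7 and 44.6 CPM with functional MED5, with no overlap (-1.14 ± 0.10, adjusted p = 7.23e-07). Its med5 genotype means differed by 1.08-fold and those with functional MED5 by 1.9-fold. MYB7, a close relative of MYB4, had 1.24, 2.18 and 3.64 CPM in med5 libraries and 2.4, 5.44 and 10.3 CPM with functional MED5 (-1.33 ± 0.16, adjusted p = 3.35e-05). The third relative, MYB32, had a log2 fold change of 0.13 ± 0.10 (adjusted p = 0.389), and KFB20 one of -0.01 ± 0.11 (adjusted p = 0.957). KFB01 and KFB-CHS were also not called. The 4 falls were called under every alternative setting tried.

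The genes with the deepest falls outside these lists shared the pattern of KFB39 in part. DJC66 (AT3G13310), a DnaJ-domain protein, had 2.02, 2.8 and 5.02 CPM in med5 libraries, against 12.6, 67.7 and 118 CPM with functional MED5 (log2 fold change -4.09 ± 0.31, adjusted p = 1.4e-06). Its genotype means spanned 1.8-fold among med5 genotypes and 8.3-fold among wild type, ref5-1 and ref2-1, in that order from low to high. The effect was -2.34 ± 0.14 in wild type, -4.79 ± 0.14 in ref5-1 and -4.74 ± 0.13 in ref2-1 (interaction adjusted p = 1.16e-06). Of 4 other small J-protein genes, DJC23 fell (-1.33 ± 0.17, adjusted p = 0.000148) with a similar order of backgrounds, at -0.52 ± 0.15, -1.82 ± 0.15 and -1.61 ± 0.15. DJC24 rose (0.42 ± 0.11, adjusted p = 0.0157). The evening element shown above for DJC66 lies 28 to 20 bases before the gene start.

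PRN2 (AT2G43120), a pirin-like cupin protein linked with lignin composition, had 2.16, 3.68 and 4.53 CPM in med5 libraries, against 12.5, 21.3 and 38.5 CPM with functional MED5. Its fall of -2.71 ± 0.13 had the smallest adjusted p after MED5B among the named genes (6.84e-10), and the order of backgrounds differed from that of KFB39, with -2.41 ± 0.13, -3.32 ± 0.14 and -2.34 ± 0.14 in wild type, ref5-1 and ref2-1. BAM5, a beta-amylase gene induced by sugar, had 0.22, 0.422 and 7.5 CPM in med5 libraries and 3.29, 15.4 and 72.1 CPM with functional MED5 (-4.35 ± 0.66, adjusted p = 0.000725). It varied widely among replicates, with 34.3 ± 32.8 CPM in wild type and 25.1 ± 27.9 CPM in ref2-1 (SD, n = 3 each). Its groups did not overlap within any background, but that was a condition for naming it among the deepest falls. Replicate 3 was the highest for BAM5 in wild type, ref2-1 and med5, but not in ref5-1.

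A further 5 of the 12 deepest falls were of genes at or below 24.2 CPM in every library. ARFB1A, an ADP-ribosylation factor relative, had 1.66, 2.01 and 2.55 CPM in med5 libraries and 3.87, 5.88 and 7.61 CPM with functional MED5 (-1.48 ± 0.12, adjusted p = 1.83e-07). AT2G16890, a glycosyltransferase family member, fell by 1.65 ± 0.16 on the log2 scale and AT1G03940, an acyltransferase family member, by 1.63 ± 0.23. AT3G24750 fell by 1.61 ± 0.23, and the non-coding RNA AT5G53048 fell by 1.73 ± 0.21; both overlap an annotated gene on the opposite strand.

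Genes of flavonoid and anthocyanin synthesis fell in med5 rosettes while the general pathway rose. Of 22 measured genes, 15 fell and none rose, beside 6.59% and 5.92% of all tested genes. The median log2 fold change was -0.85 against 0.01 over all tested genes, and was -0.50 in the wild-type, -1.05 in the ref5-1 and -1.04 in the ref2-1 background. The deepest falls, of UGT79B1, 5MAT and TT19, were of genes for anthocyanin decoration and transport. The count rested partly on the pairs with a background allele, and was 8 without the ref5-1 pair of genotypes and 9 without the ref2-1 pair.

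Among the early genes, CHS, chalcone synthase, had 225, 285 and 377 CPM in med5 libraries and 269, 416 and 546 CPM with functional MED5 (log2 fold change -0.45 ± 0.12, adjusted p = 0.023). CHI, chalcone isomerase, fell by 0.29 ± 0.09 on the log2 scale at an adjusted p of 0.0479, and that call was lost in 18 of the 28 alternatives. F3H, flavanone 3-hydroxylase, had 51.4, 56.9 and 95 CPM in med5 libraries and 73.9, 121 and 204 CPM with functional MED5 (-0.98 ± 0.14, adjusted p = 0.000285). The 3′-hydroxylase gene F3'H fell by 1.40 ± 0.31 on the log2 scale. FLS1, which leads to flavonols, was not called.

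The late genes DFR and LDOX fell by similar amounts. DFR, dihydroflavonol reductase, had 21.3, 45.7 and 59.8 CPM in med5 libraries and 54.2, 121 and 150 CPM with functional MED5 (-1.41 ± 0.22, adjusted p = 0.000905). LDOX, the leucoanthocyanidin dioxygenase, had 20.2, 45.5 and 61.1 CPM in med5 libraries and 55.5, 120 and 184 CPM with functional MED5 (-1.45 ± 0.22, adjusted p = 0.00068). Both genes overlapped at the edges of the groups, and the wild-type replicates were spread widely. DFR averaged 51.2 ± 6.21 CPM in med5 and 91.8 ± 49.4 CPM in wild type (SD, n = 3 each). The spread of DFR genotype means was larger among med5 genotypes (2.28-fold) than among those with functional MED5 (1.63-fold), the reverse of KFB39 and PAL4.

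Decoration and transport genes fell to different degrees. UGT79B1, the anthocyanin xylosyltransferase, had 2.64, 6.98 and 8.92 CPM in med5 libraries and 8.77, 23.6 and 35.6 CPM with functional MED5 (-1.87 ± 0.29, adjusted p = 0.000712). The malonyltransferase gene 5MAT had 3.3, 8.3 and 9.98 CPM in med5 libraries and 11.2, 24.4 and 35.0 CPM with functional MED5, with no overlap (-1.62 ± 0.21, adjusted p = 0.000148). TT19, a glutathione S-transferase needed for anthocyanin transport, had 10.5, 20 and 24.7 CPM in med5 libraries and 29.2, 63.0 and 89.7 CPM with functional MED5, also with no overlap (-1.56 ± 0.22, adjusted p = 0.000323). The glucosyltransferase gene UGT75C1 fell by 1.53 ± 0.30 on the log2 scale and UGT78D2, which glucosylates anthocyanidins and flavonols, by 0.50 ± 0.13 (adjusted p = 0.0152). UGT78D1 and UGT89C1, which glycosylate flavonols, were not called.

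Regulators of the branch moved with it. The MYB activator PAP1 had 3.3, 6.32 and 11 CPM in med5 libraries and 7.65, 18.8 and 25.3 CPM with functional MED5 (-1.32 ± 0.26, adjusted p = 0.00373). Its bHLH partner TT8 had 1.34, 2.99 and 4.43 CPM in med5 libraries and 3.39, 5.01 and 10.2 CPM with functional MED5 (-1.12 ± 0.14, adjusted p = 4.27e-05). MYBL2, a repressor of anthocyanin synthesis, fell as well (-0.79 ± 0.10, adjusted p = 8.57e-05). Among the flavonol regulators, MYB11 fell (log2 fold change -0.90, adjusted p = 0.011), a call lost without the ref5-1 or the ref2-1 pair of genotypes. The flavonol regulators MYB12 and MYB111, and EGL3 and PAP2, were not called. A G-box occurred in 6 of the 22 upstream stretches, including 14 to 9 bases before the start of DFR and at 171 to 166 and 128 to 123 bases before that of UGT79B1.

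**Figure D3:**
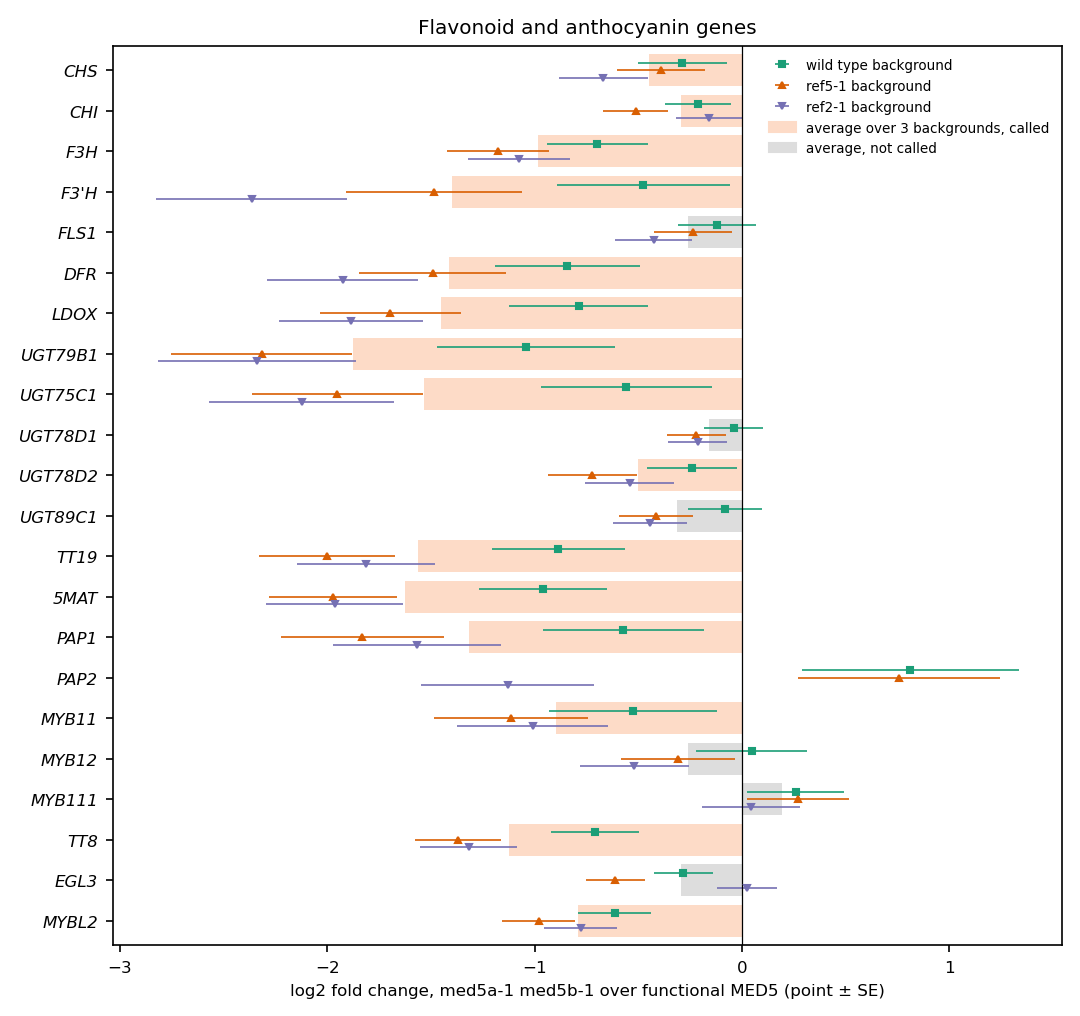
Log2 fold change of med5 over functional MED5 for 22 flavonoid and anthocyanin genes, with points for the wild-type, ref5-1 and ref2-1 backgrounds (± SE) and bars for the additive average. Most genes lie below 0, and the median is -0.50 in the wild-type background, against -1.05 in ref5-1 and -1.04 in ref2-1.

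Several of the 12 largest rises were of other metabolic or regulatory genes. AT1G30760, a berberine bridge enzyme-like oxidase, had 1.41, 2.84 and 13.4 CPM in med5 libraries and 0.2, 0.607 and 4.06 CPM with functional MED5, a 4-fold higher level (log2 fold change 2.00 ± 0.16, adjusted p = 2.52e-07). Its level was also highest in the ref5-1 background (mean 11.3 ± 1.92 CPM with med5 and 3.6 ± 0.62 CPM without; SD, n = 3 each). MYB43, a MYB factor of secondary wall formation, had 5.3, 7.59 and 10.4 CPM in med5 libraries and 1.63, 4.34 and 4.84 CPM with functional MED5, with no overlap (1.2 ± 0.16, adjusted p = 0.000128). MYB63, an activator of lignin genes from the xylem list, was too scarce for the 5 CPM rule and so was not among the 12. It had 0.682, 1.11 and 2.07 CPM in med5 libraries and 0.15, 0.333 and 0.482 CPM with functional MED5, with no overlap (1.87 ± 0.23, adjusted p = 3.3e-05).

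GLN1;4, a cytosolic glutamine synthetase, had 2.96, 9.22 and 13.2 CPM in med5 libraries and 1.57, 2.63 and 5.65 CPM with functional MED5 (1.2 ± 0.16, adjusted p = 0.000117). PMAT2, a malonyltransferase of phenolic glucosides, had 3.66, 5.37 and 7.41 CPM in med5 libraries and 1.31, 2.63 and 3.49 CPM with functional MED5, with almost equal effects in the 3 backgrounds (1.09 ± 0.24, 1.11 ± 0.24 and 1.04 ± 0.26). The amino acid transporter family member AT1G25530 (1.07 ± 0.11), the dehydrogenase-like AT4G13180 (1.03 ± 0.10), AT1G60060 (0.97 ± 0.09) and the chitinase family member AT2G43590 (0.99 ± 0.20) rose to a similar degree. AT1G19960 rose by a log2 fold change of 1.24 ± 0.25, with a wide spread between genotypes.

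Glucosinolate genes, in whose pathways the background alleles lie, moved in both directions, beside 5.92% of all tested genes called higher and 6.59% called lower. Of 28 aliphatic pathway genes, MAM3 (0.67 ± 0.14), CYP79F2 (0.48 ± 0.09), MYB28 (0.32 ± 0.10) and MYB29 (0.19 ± 0.04) rose, while GSTF11 (-0.54 ± 0.13) and FMOGS-OX4 (-0.46 ± 0.09) fell. The 2 lower calls became 8 without ref2-1 replicate 2, 6 without the ref2-1 pair of genotypes, 1 without the wild-type pair and 0 without the ref5-1 pair, and the 4 higher calls became 2 without either the ref5-1 or the ref2-1 pair. CYP79F2 has the near-identical copy CYP79F1, so its counts are uncertain. Of 16 indole pathway genes, the activator MYB51 rose (0.76 ± 0.16, adjusted p = 0.00403). The side-chain hydroxylase gene CYP81F3 fell, with 2.17, 3.1 and 5.65 CPM in med5 libraries and 3.86, 9.02 and 12.2 CPM with functional MED5 (-1.2 ± 0.14, adjusted p = 1.93e-05), as did CYP81F1 (-0.38 ± 0.10), CYP81F4 (-1.35 ± 0.39) and the methyltransferase gene IGMT5 (-1.46 ± 0.39). CYP81F2 rose (1.28 ± 0.37, adjusted p = 0.0324). The 4 lower indole calls became 2 without wild type replicate 3 or ref2-1 replicate 3, and 1 without either the ref5-1 or the ref2-1 pair. CYP81F4 lost its call in 12 and CYP81F2 in 11 of the 28 alternatives.

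Some sulfate assimilation genes fell. Of 17 measured, 5 fell and none rose, beside 6.59% and 5.92% of all tested genes, and 7 of the 17 had a positive log2 fold change. The list median was -0.17. LSU2, induced by sulfur deficiency, had 4.99, 8.45 and 12.3 CPM in med5 libraries and 10.2, 14.7 and 25.1 CPM with functional MED5 (-0.72 ± 0.11, adjusted p = 0.000401), with closely similar effects in the 3 backgrounds. APR1, the sulfate-reducing enzyme of this pathway, fell (-0.54 ± 0.11), as did the vacuolar sulfate transporter gene SULTR4;2 (-0.37 ± 0.09). Over the alternatives, 1 to 7 members were called lower and 0 or 1 called higher. Lower calls numbered 1 without the ref5-1 pair of genotypes, and 3 without the ref2-1 pair or without any 1 of 6 single libraries: wild type replicate 3, ref5-1 replicate 2, ref2-1 replicate 3, ref5-1 med5 replicate 1, ref5-1 med5 replicate 2 and ref2-1 med5 replicate 3.

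Some growth-associated genes also rose. Of 12 shade and cell-expansion genes, 5 rose and none fell, beside 5.92% and 6.59% of all tested genes. EXPA1, an expansin, had 392, 464 and 716 CPM in med5 libraries and 235, 366 and 546 CPM with functional MED5 (0.43 ± 0.07, adjusted p = 0.000591). EXPA8 (0.74 ± 0.14), EXPA11 (0.46 ± 0.12), the gibberellin-responsive GASA6 (0.74 ± 0.16) and ATHB-2 (0.36 ± 0.09), a shade-induced transcription factor, also rose. GASA6 had an effect of 0.05 ± 0.17 in the wild-type, 1.03 ± 0.17 in the ref5-1 and 1.14 ± 0.17 in the ref2-1 background (interaction adjusted p = 0.0425). Without the ref5-1 pair of genotypes 1 of the list was called, and without the ref2-1 pair 2 were.

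Auxin-responsive genes split. Of 18, 4 rose and 2 fell, beside 5.92% and 6.59% of all tested genes. The auxin-conjugating GH3.6 rose (0.63 ± 0.08, adjusted p = 5.45e-05), with 66.7, 98.3 and 261 CPM in med5 libraries and 48.9, 62.0 and 176 CPM with functional MED5, and so did GH3.5 (0.76 ± 0.16), IAA19 (0.52 ± 0.11) and IAA2 (0.18 ± 0.06). IAA5 fell, with 0.969, 2.26 and 3.52 CPM in med5 libraries and 1.5, 3.68 and 6.54 CPM with functional MED5 (-0.77 ± 0.09, adjusted p = 2.26e-05), and IAA1 fell (-0.44 ± 0.08, adjusted p = 0.00164). The 4 higher calls became 2 without the ref5-1 pair of genotypes and 1 without the ref2-1 pair, and GH3.5 lost its call in both cases. Both IAA1 and IAA5 encode auxin-induced repressors of the response. No member of 8 type-A cytokinin response genes was called.

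Of 7 ROXY glutaredoxin genes, which respond to nitrate and cytokinin, 4 rose, beside 5.92% of all tested genes. These were GRXS3, GRXS4 (0.64 ± 0.14), GRXS5 (0.70 ± 0.18) and GRXS7 (0.73 ± 0.19). They lie in a cluster of near-identical copies, so counts are uncertain for each. None was called without the wild-type pair of genotypes, and 1 without the ref5-1 pair. GRXS4 had an effect of 1.11 ± 0.19 in the wild-type, 0.62 ± 0.19 in the ref5-1 and 0.21 ± 0.18 in the ref2-1 background, which did not pass the test of a difference (interaction adjusted p = 0.126).

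Some genes of flowering and of flower organs were higher in med5 rosettes, FLC and the organ markers at low levels. Of 14 flowering-time genes, 2 rose and 1 fell, beside 5.92% and 6.59% of all tested genes. The repressor FLC rose (0.96 ± 0.18, adjusted p = 0.00171) but had only 7 to 76 counts per library. Its counts overlapped in the wild-type background, with 15 to 24 in med5 and 7 to 19 in wild type. The florigen gene FT rose too, with 4.41, 6.22 and 6.5 CPM in med5 libraries and 2.25, 4.15 and 6.03 CPM with functional MED5 (0.57 ± 0.13, adjusted p = 0.00594). SOC1, a target of FT, fell (-0.29 ± 0.09, adjusted p = 0.0433), a call lost in 18 of the 28 alternatives, with effects of -0.22 ± 0.09, -0.72 ± 0.09 and 0.07 ± 0.09 in wild type, ref5-1 and ref2-1. Of 7 floral organ and meristem markers, AP1 (1.09 ± 0.22), AP3 (1.07 ± 0.30), PI (0.83 ± 0.23) and SEP3 (1.21 ± 0.22) rose, beside 5.92% of all tested genes. Summed over the 7 markers, med5 libraries had 4.96 to 15.7 CPM and libraries with functional MED5 had 3.96 to 8.45 CPM, with no marker at 0 in any library. The rosettes thus held little RNA of these genes, and the part of floral tissue in other results was not tested. The count was 2 without the wild-type pair and 1 without the ref2-1 pair.

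Among 15 clock genes, 1 rose and 2 fell, beside 5.92% and 6.59% of all tested genes. The morning gene LHY rose (0.38 ± 0.09, adjusted p = 0.0116) and PRR9 (-0.44 ± 0.06, adjusted p = 9.28e-05) and PRR5 (-0.65 ± 0.19, adjusted p = 0.0317) fell, although PRR5 lost its call in 12 of the 28 alternatives. All libraries came from 1 harvest time, so a shift in phase and a change in level cannot be told apart. LHY had effects of -0.09 ± 0.08, 0.70 ± 0.08 and 0.52 ± 0.08 in wild type, ref5-1 and ref2-1 (interaction adjusted p = 0.00783). Of 6 sugar-induced genes, the starch synthesis gene APL3 (-0.36 ± 0.07) fell beside BAM5.

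Defence and stress lists varied between the backgrounds. Of 18 salicylate-response genes, 1 rose (5.56%) and none fell, beside 5.92% and 6.59% of all tested genes. It was NIMIN1, a regulator of NPR1 (1.83 ± 0.55, adjusted p = 0.0385), with 2 to 6 counts in wild type libraries. The NIMIN1 call was lost in 14 of the 28 alternatives. The list median was 0.67. That median was 1.29 in the wild-type and 1.72 in the ref5-1 but -0.45 in the ref2-1 background. PR1, the salicylate marker, averaged 42.8 ± 57.1 CPM in med5, 98.9 ± 58.8 in ref5-1 med5 and 93.1 ± 33.9 in ref2-1 med5, against 0.28 ± 0.185 in wild type, 0.662 ± 0.0999 in ref5-1 and 245 ± 134 in ref2-1 (SD, n = 3 each). It was high in ref2-1 with or without med5, and its averaged effect was not called (3.66 ± 1.51, adjusted p = 0.128) while its effects differed between backgrounds (interaction adjusted p = 0.0251). The number of called members ran from 0 to 13 over the alternatives, with 13 when the ref2-1 pair of genotypes was left out.

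Of 16 jasmonate and ethylene response genes, the vegetative storage protein genes VSP1 (-2.05 ± 0.58, adjusted p = 0.0336) and VSP2 (-2.0 ± 0.48, adjusted p = 0.0136) fell. With 2 of 16 called, the list was at the 12.5% of all tested genes. VSP1 and VSP2 are close copies, and replicate 3 stood above the other replicates in wild type, ref2-1 and med5, and by less in ref5-1. In ref2-1 med5, replicate 2 was highest. Over the alternatives 0 to 8 were called lower and 0 or 1 higher. Of 14 cold and abscisic acid genes, COR15B, LTI30 and COR6.6 fell, beside 6.59% of all tested genes, and COR6.6 has the near-identical copy KIN1. COR15B averaged 7.15 ± 5.18 CPM in med5, 10.9 ± 0.707 in ref5-1 med5 and 6.14 ± 0.234 in ref2-1 med5, against 9.66 ± 4.62 in wild type, 72.5 ± 10.1 in ref5-1 and 10.5 ± 1.68 in ref2-1 (SD, n = 3 each). The averaged fall thus came mainly from ref5-1, and without that pair none of the list was called, while 1 was called without any 1 of the 3 ref5-1 med5 libraries. Leaving out wild type replicate 2, ref2-1 replicate 2 or med5 replicate 2 gave 5, as did DESeq2. Both limma voom and the fit with 1 coefficient per genotype gave 6.

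**Figure D4:**
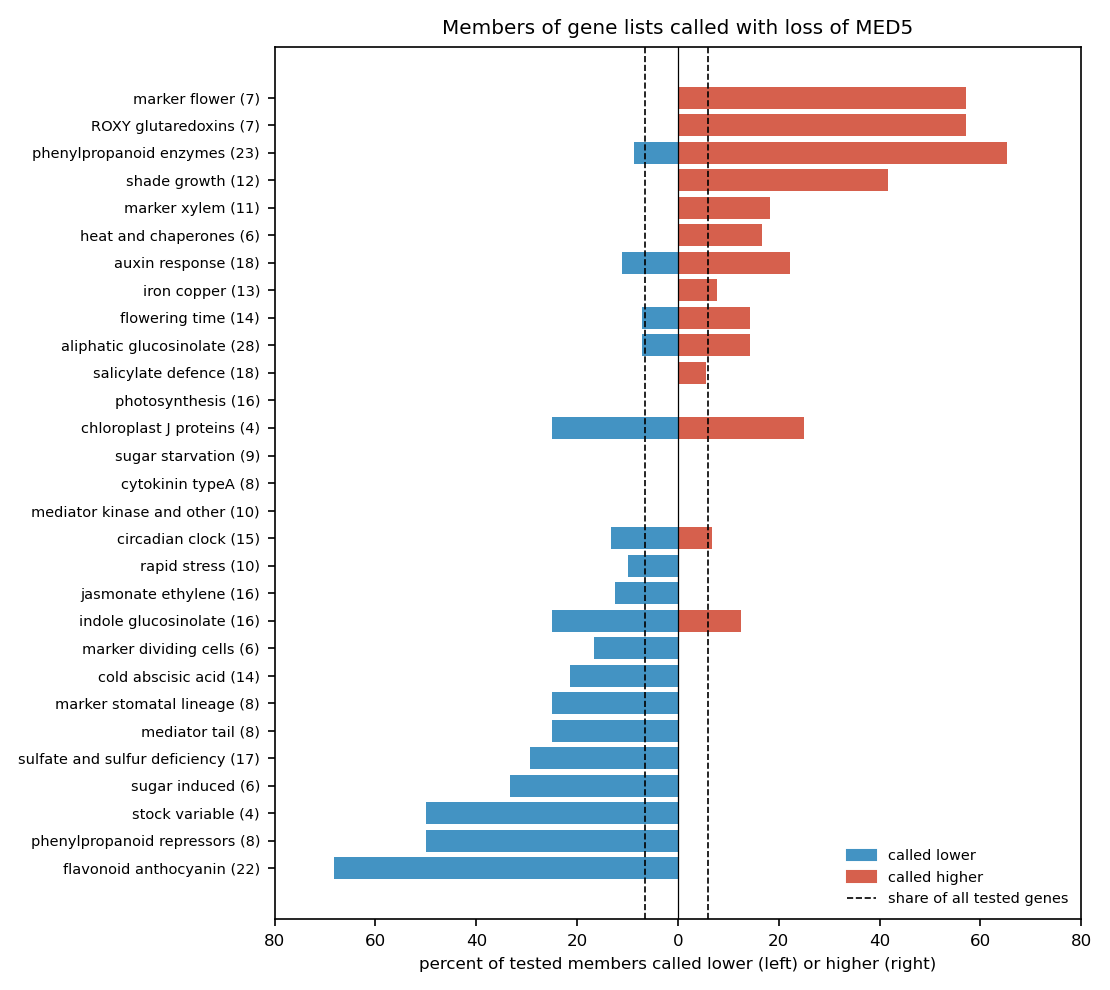
Percent of tested members called lower and higher in med5 for each gene list, with dashed lines at the share among all tested genes (6.59% lower, 5.92% higher). The phenylpropanoid enzymes lie far to the higher side and the flavonoid and anthocyanin genes to the lower side.

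**Figure D5:**
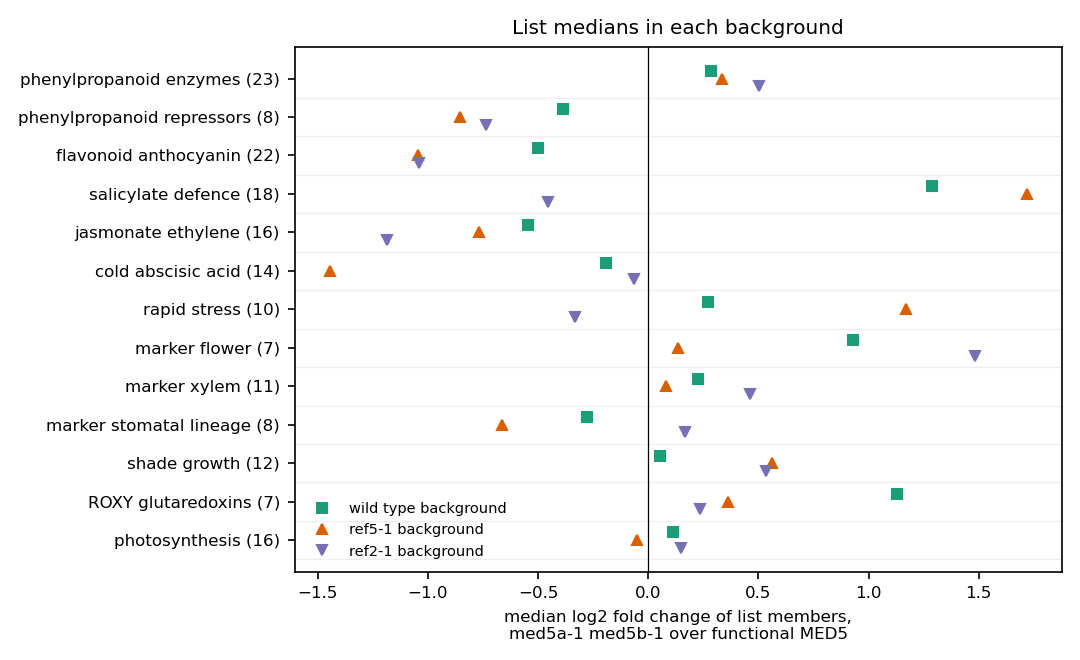
Median log2 fold change of med5 over functional MED5 for 13 gene lists in the wild-type, ref5-1 and ref2-1 backgrounds. Phenylpropanoid enzymes and flavonoid genes keep 1 sign in all 3 backgrounds, whereas the salicylate list is 1.29 and 1.72 in wild type and ref5-1 and -0.45 in ref2-1.

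Few changes were seen in the remaining lists, beside 5.92% of all tested genes called higher and 6.59% called lower. None of 16 photosynthesis genes was called, although all 16 had a positive log2 fold change, the largest being 0.19. None of 9 sugar-starvation genes was called. HSP101 rose among 6 heat and chaperone genes (0.22 ± 0.06), NAS4 among 13 iron and copper genes (0.29 ± 0.08), and MYB44 fell among 10 rapid stress genes (-0.53 ± 0.16). Of 8 stomatal lineage markers, EPF1 (-0.52 ± 0.14) and BASL (-0.45 ± 0.12) fell, and of 6 markers of dividing cells, CYCB1;2 did (-0.26 ± 0.07). The 2 stomatal calls became 1 without the wild-type pair of genotypes, 0 without the ref5-1 pair and 5 without the ref2-1 pair. The stomatal list median was -0.28 in the wild-type, -0.66 in the ref5-1 and 0.17 in the ref2-1 background. CYCB1;2 lost its call without the wild-type or the ref5-1 pair. Of 5 root markers 1 was tested and not called. Of the 379 list genes, 355 were tested; the other 24 had too few counts.

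The averaged effect had the same sign in all 3 backgrounds for 2366 of the 2489 called genes (95.1%), as the average itself favours. Tested alone, the effect of med5 called 155 genes (0.779%) in the wild-type background, 67 higher (0.337%) and 88 lower (0.442%). It called 2149 (10.8%) in ref5-1, 1211 higher (6.09%) and 938 lower (4.71%), and 1773 (8.91%) in ref2-1, 925 higher (4.65%) and 848 lower (4.26%). Of the genes called on average, 52 were called in each background alone and 839 in none alone. The effect differed between backgrounds for 390 genes (1.96%), of which 97 were also called on average and 293 were not. This count ran from 67 without ref2-1 med5 replicate 2 to 830 without ref5-1 med5 replicate 1, the library with the most reads aligned to several places.

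A background that took no part in the call gave a check of direction. Of 1823 genes called on average over ref5-1 and ref2-1, 1513 (83%) had the same sign in the wild-type background. Of 1066 genes called over wild type and ref2-1, 949 (89.0%) had the same sign in ref5-1, and of 1916 called over wild type and ref5-1, 1202 (62.7%) had the same sign in ref2-1. Of the last set, 393 were called in ref2-1 with the same sign and 21 with the opposite one. Across the 19897 genes, which are not independent replicates, the effects in wild type and ref5-1 had a Pearson r of 0.57 and a Spearman rho of 0.46. With ref2-1 they had r of 0.16 (rho 0.12) for wild type and 0.15 (rho 0.14) for ref5-1. These contrasts share no library.

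The next loci show how an average can hide differences between single genotypes. AT3G01345 was 335 ± 35.7 CPM in wild type but between 0.213 and 0.452 CPM as the mean of the other 5 genotypes. Its fall in the common fit, 8.08 ± 1.00 on the log2 scale (adjusted p = 0.000145), is no plain mean of the 3 effects. The call was lost without the wild-type pair of genotypes (adjusted p = 0.156). AT5G35935 was 0.502 ± 0.13 CPM in wild type and 14.8 to 20.6 CPM as the mean of the other 5, and was not called on average (adjusted p = 0.132). MRD1, a locus known to vary between Columbia-0 stocks, averaged 1.02 ± 0.798 CPM in med5, 0.0795 ± 0.0733 in ref5-1 med5 and 12 ± 3.76 in ref2-1 med5, against 28.7 ± 0.871 in wild type, 0.338 ± 0.284 in ref5-1 and 32.6 ± 3.85 in ref2-1 (SD, n = 3 each). At AT3G01345 and AT5G35935, ref5-1 and ref2-1, with functional MED5, had levels like those of the med5 genotypes, and only wild type stood apart. At MRD1, wild type and ref2-1 were high and ref5-1 was low. At MRD1, MED5 status and the seed stock of each line cannot be told apart. The part of the seed stock at the other loci was not tested.

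Among the other genes with the clearest differences between backgrounds, some differed in size and 1 in sign. LZF1, a zinc finger light-signalling factor, fell by 0.98 ± 0.16 on the log2 scale, with effects of -0.11 ± 0.11 in wild type, -1.38 ± 0.11 in ref5-1 and -1.40 ± 0.10 in ref2-1. Its mean was 16.7, 14.4 and 20.3 CPM in med5, ref5-1 med5 and ref2-1 med5, against 18.1, 37.5 and 53.7 CPM in wild type, ref5-1 and ref2-1, an order close to that of DJC66. LTP6, a lipid transfer protein gene, had -0.57 ± 0.09 in wild type and -0.75 ± 0.09 in ref5-1 but 0.54 ± 0.09 in ref2-1, and was not called on average (adjusted p = 0.28). AT2G30740 rose (0.58 ± 0.17, adjusted p = 0.0348), mainly through ref5-1 (0.04 ± 0.11, 1.47 ± 0.12 and 0.30 ± 0.11).

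Genes near the insertions travel with the med5 alleles in every background. Among the 20 annotated genes on either side of MED5A, 27 were tested and 7 were called (25.9%, beside 12.5% of all tested genes), 2 higher and 5 lower. These included PHO1, a phosphate exporter (0.62 ± 0.07, adjusted p = 6.88e-06), and AT3G23510 (-0.93 ± 0.15, adjusted p = 0.000643). Around MED5B, 22 were tested and 1 was called (4.55%). That gene, PAC, a protein needed for chloroplast development, lies directly beside MED5B and averaged 21.2 CPM in med5 libraries and 37.8 CPM with functional MED5, with no overlap between the groups (-0.84 ± 0.05, adjusted p = 9.47e-09). Effects of MED5 loss and of sequence linked to the insertions cannot be told apart at these genes, which were chosen for naming after their values were seen.

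Upstream motifs were counted in the 250 bases before the start of 19776 tested genes, on both strands. The G-box CACGTG occurred in 17.2% of stretches of genes called lower by at least 1 on the log2 scale (28 of 163) and in 5.56% of those called higher by at least 1 (5 of 90), beside 7.35% of all tested genes. Among all genes called lower it occurred in 9.39%, and among all called higher in 7.05%. The ABRE (ACGTGTC or ACGTGGC), whose core overlaps the G-box, occurred in 7.98% of the larger falls and 3.33% of the larger rises, beside 7.29% of all. The evening element AAAATATCT occurred in 5.52% of the larger falls and 3.33% of the larger rises, beside 2.48% of all.

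The AC element (ACCTACC or ACCAACC) had shares of 6.67% among the larger rises and 4.29% among the larger falls, beside 3.94% of all, and 5 of the 15 enzyme genes that rose held it. The W-box (TTGACC or TTGACT) had 34.4% among the larger rises and 30.7% among the larger falls, beside 28% of all, and the TATA box (TATAAA) 54.4% and 49.7% beside 45.7%. The heat shock element (GAANNTTC) had 6.67% and 14.7% beside 9.42%, and the GCC-box (GCCGCC) 2.22% and 2.45% beside 1.97%. These shares describe letters in a window and were not tested.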

How the data were processed

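Poly(A) RNA-seq libraries from 18 rosette pools (6 genotypes, 3 libraries each) were put into groups by their labelled genotype. The authors deposited raw counts per gene, without normalization, and used Trimmomatic, TopHat2 2.1.0, HTSeq 0.6.1 and edgeR with TAIR10, per the submitters' processing notes; their options and strand setting were not given in the sources used here. The table held 33602 gene IDs, of which 32835 matched the RefSeq TAIR10.1 gene table used for symbols. Its 5 summary lines stayed out of all totals and tests: of a library, 0.775% to 1.44% fell in no feature, 0.648% to 1.37% was ambiguous and 3.71% to 25.3% aligned to several places.

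Counts were analysed in edgeR 4.0.16 (R 4.3.3) with TMM scaling, filterByExpr on the 6 genotypes and the robust quasi-likelihood test of MED5 status with background as a block, over 18 libraries and 19897 genes, with Benjamini-Hochberg adjustment. The effects within backgrounds and their difference (an interaction test) came from a fit with 1 coefficient per genotype. At the lowest depth 1 CPM equals 19.6 counts, so folds near 0 CPM are imprecise. Whether the pools of a genotype were grown separately is not given in full by the labels, so the p-values cover the spread between these pools, which may be technical in part. On simulated counts for the averaged comparison (19737 genes), 79.1% of 1.5-fold, 97% of 2-fold and 100% of 4-fold changes were recovered, and 4.66% of calls were of unchanged genes. The simulated counts held no background effect and the same MED5 effect in every background. These rates therefore need not hold for the real counts, where backgrounds differed.

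The genes, lists and comparison were chosen with earlier results of these data known. Named genes were the targeted genes, the 12 highest and 12 lowest called effects whose higher group averaged 5 CPM or more and no overlap in each of the 3 backgrounds, up to 3 called members per list with the smallest p, and the 6 strongest differences between backgrounds; other list members are given with their lists. Gene starts and upstream sequences are from RefSeq's TAIR10.1. DESeq2 1.42.0, limma 3.58.1 voom, 2 other scalings, no filter, a genotype model, a replicate block and fits without each pair of genotypes or each library were the alternatives.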

Additional observations from a re-analysis of the deposited data

Results flagged for a closer look

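Among 164 groups of 9 libraries (82 named genes, med5 and functional MED5), 10 held a library far from the others; chance flags about 1 group in 20, and groups of 3 libraries were not examined. In med5 libraries, replicate 3 of med5 in the wild-type background was the library apart for BAM5 (7.5 CPM), GRXS4 (15.6 CPM), CYP83B1 (301 CPM), VSP2 (221 CPM) and VSP1 (100 CPM). In ref5-1 med5, replicate 3 stood apart for AT2G43590 (41.7 CPM) and replicate 1 for AT3G24750 (8.55 CPM). With functional MED5, wild type replicate 3 stood apart for VSP1 (559 CPM), ref5-1 replicate 1 for PI (1.78 CPM) and ref2-1 replicate 2 for PRR5 (2 CPM).

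The effect of MED5 loss differed between backgrounds for 17 of the 82 named genes, by edgeR's interaction test with Benjamini-Hochberg adjustment. Among all tested genes it differed for 390 (1.96%). The named set is no sample of these, because 6 of its genes were chosen for the smallest p of this same test. Those were AT5G35935, AT3G01345, DJC66, LTP6, LZF1 and AT2G30740, whose passing was fixed by that choice. The smallest adjusted p-values were those of AT5G35935 (1.42e-08), AT3G01345 (1.04e-07), DJC66 (1.16e-06), LTP6 (8.14e-05), LZF1 (0.000203), AT2G30740 (0.000317) and KFB39 (0.000485). LHY (0.00783), DJC23 (0.0116), SOC1 (0.0129), MYB4 (0.0147), MRD1 (0.0201), PRN2 (0.0233), AT2G16890 (0.0251), 4CL2 (0.0291), GASA6 (0.0425) and SULTR4;2 (0.0497) followed. For KFB39, DJC66, DJC23, MYB4, LZF1 and AT2G16890 the effect was smallest in the wild-type background.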

How the results depend on the processing

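The averaged comparison called 2489 genes, and 3147 with DESeq2 (2461 shared), 2496 with limma voom (2376 shared) and 2247 without the filter (2188 shared). The plain mean of the 3 effects, from 1 coefficient per genotype, called 3263 (2457 shared). The averaged comparison called 2474 and 2505 with RLE and upper-quartile scaling, and 1823 without the wild-type pair (1461 shared). Without the ref5-1 pair of genotypes it called 1066 (911 shared), with 520 higher, 546 lower and 145 at an absolute log2 fold change of at least 1. Without the ref2-1 pair it called 1916 (1149 shared), with 850 lower and 410 at that size; the cause was not tested. Leaving out 1 library gave 1828 to 2520 genes, 838 to 1136 higher, 982 to 1392 lower and 225 to 296 of the larger size. It gave 67 (without ref2-1 med5 replicate 2) to 830 (without ref5-1 med5 replicate 1) genes for the difference between backgrounds. Within the wild-type background the range was 52 (without wild type replicate 1) to 229 (without ref5-1 replicate 1), within ref5-1 897 (without ref5-1 med5 replicate 2) to 2221, and within ref2-1 762 (without ref2-1 med5 replicate 2) to 2420. Same-numbered libraries did not pair (correlations of -0.19 to 0.28, with 2 of 9 above 0.1); with the replicate block 2350 genes were called (2269 shared), and the count of genes for which the MED5 effect differs between backgrounds was 822. No named gene reversed direction in these alternatives; 171 of the checks of named genes lost a call, 10 gained one and 2115 did neither. Calls lost most often were those of SOC1, CESA8, CHI, COR6.6, MYB44, CAD5, MYB28, SHM7, IAA2, NIMIN1 and VSP1.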
